A study of Homo sapiens with 6 samples.

Results

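The 10 genes described here encode chemokines that draw neutrophils, monocytes and other leukocytes out of the blood: CXCL1, CXCL2, CXCL3, CXCL5, CXCL6, CXCL8, CXCL12, CXCL16, CCL2 and CCL20. They are CXC and CC chemokines that were named with earlier results of these data known. Their symbols alone, with no measured value, were used to find them among the 63140 genes quantified. Of these genes, 14451 held enough reads in the 6 libraries to be tested, 8 of the 10 chemokine genes among them. CXCL6 and CCL20 were too low to test and are described by their counts. The study asked how secretions of adipocytes change gene expression in BT-549, an established human line of triple negative breast cancer (a type without estrogen receptor, progesterone receptor or HER2). Wild-type BT-549 cells were grown for 24 h in adipocyte-conditioned media (ACM, 3 cultures) or in unconditioned media (UCM, 3 cultures), and their polyA RNA was sequenced. ACM was medium with insulin and oleate that had been kept on differentiating mouse OP9 cells. The formula of UCM is not given in the sources used here, so base medium, serum, oleate and insulin cannot be told apart from adipocyte secretions in ACM against UCM. The labels give 50% ACM, whereas the methods describe ACM without dilution. No source says that the replicates were grown on separate days, so p-values measure the spread between these cultures only.

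Chemokines are small secreted proteins that bind G protein-coupled receptors on leukocytes and set the direction in which these cells move. CXCL1, CXCL2, CXCL3, CXCL5, CXCL6 and CXCL8 carry a Glu-Leu-Arg (ELR) motif before their first cysteines and act on neutrophils through CXCR2, with CXCL6 and CXCL8 also binding CXCR1. CCL2 draws monocytes through CCR2, CXCL12 binds CXCR4 and ACKR3, CXCL16 is made as a membrane protein that binds CXCR6, and CCL20 binds CCR6, so the last 3 are better known for lymphocytes and dendritic cells than for neutrophils. Many of these genes are switched on by TNF, IL-1 or IL-17 through NF-κB, and their mRNAs are short-lived.

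The 6 ELR+ genes lie in 1 cluster on chromosome 4 (GRCh38, GENCODE 44). In order these are CXCL8 (ENSG00000169429.12, chr4:73740519-73743716, + strand), CXCL6 (ENSG00000124875.10, chr4:73836640-73849064, +), CXCL1 (ENSG00000163739.5, chr4:73869393-73871308, +), CXCL5 (ENSG00000163735.7, chr4:73995642-73998677, -), CXCL3 (ENSG00000163734.4, chr4:74036589-74038807, -) and CXCL2 (ENSG00000081041.9, chr4:74097040-74099196, -). CXCL12 (ENSG00000107562.18) is at chr10:44370165-44386493 on the - strand and CCL20 (ENSG00000115009.13) at chr2:227805739-227817564 on the + strand. CXCL16 (ENSG00000161921.17, chr17:4733533-4739928, -) and CCL2 (ENSG00000108691.10, chr17:34255274-34257208, +) lie far apart on chromosome 17.

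The promoters of the ELR+ genes are shown because they share a stretch of letters that was not used in choosing the genes. Each line holds the 100 bases from -150 to -51 relative to the RefSeq start of the gene (GRCh38.p14), 5′ to 3′ on the strand of the gene. Capitals mark the longest run of letters shared by the promoters of CXCL1, CXCL2, CXCL3, CXCL5 and CXCL6, GGGAATTTCCC (11 bases), or in CXCL8 the 9 bases that are the longest run shared by all 6, GGAATTTCC. Both have the form of an NF-κB binding motif. The stretches are chr4:73869243-73869342 for CXCL1, chr4:74099246-74099345 for CXCL2, chr4:74038740-74038839 for CXCL3, chr4:73998728-73998827 for CXCL5, chr4:73836528-73836627 for CXCL6 and chr4:73740419-73740518 for CXCL8.
CXCL1: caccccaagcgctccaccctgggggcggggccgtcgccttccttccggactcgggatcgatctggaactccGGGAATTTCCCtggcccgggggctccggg
CXCL2: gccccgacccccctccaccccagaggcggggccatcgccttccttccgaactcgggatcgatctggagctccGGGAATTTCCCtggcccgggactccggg
CXCL3: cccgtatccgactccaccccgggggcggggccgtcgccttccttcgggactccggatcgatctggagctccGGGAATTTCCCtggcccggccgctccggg
CXCL5: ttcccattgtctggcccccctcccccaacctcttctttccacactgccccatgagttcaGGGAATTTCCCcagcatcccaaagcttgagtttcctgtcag
CXCL6: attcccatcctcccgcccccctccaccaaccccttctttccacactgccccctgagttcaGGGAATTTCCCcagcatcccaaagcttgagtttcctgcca
CXCL8: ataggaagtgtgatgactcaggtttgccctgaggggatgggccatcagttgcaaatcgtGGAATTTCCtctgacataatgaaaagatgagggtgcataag

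In windows of 250 bases before to 50 bases after the start, searched on both strands, GGGAATTTCCC was present in 27 of 35116 RefSeq promoters (0.0769%), the 5 above included. GGAATTTCC, which lies inside the longer run, was present in 162 promoters (0.461%), the 6 ELR+ genes included. These runs were picked from the ELR+ promoters themselves, so the shares are a description. The longer run began at -79 in CXCL1 and CXCL3, at -78 in CXCL2, at -91 in CXCL5 and at -90 in CXCL6, and the 9 bases of CXCL8 began at -91. The looser NF-κB pattern GGGNNNNNCC, in which N is any base, was present in 8 of the 8 chemokine genes with a window but also in 58.7% of all promoters. It overlaps the longer run in the 5 genes that have that run. In CXCL8 its only match was at -117 to -108, outside the 9 marked bases. CXCL16 and CCL2 had no window in the table used. TGACTCA, the AP-1 motif, was found at -137 in CXCL8 only, against 4.95% of promoters. GCATAAA began at -32 in each of CXCL1, CXCL2 and CXCL3 (2.11% of promoters), and TATAAA at -31 in CXCL8 and -29 in CCL20 (11.5%). Over the 250 bases before the start, CXCL5 and CXCL6 were 85.3% identical, CXCL1 and CXCL3 81.4%, CXCL2 and CXCL3 73.4% and CXCL1 and CXCL2 70.1%, whereas CXCL8 reached 43.9 to 47.9% with the others. Thus CXCL6, with almost no reads in these cells, carries nearly the promoter letters of CXCL5, whose level per length was second only to that of CXCL1 in UCM. A match of letters is not evidence of binding.

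Total expected counts ranged from 17135270 to 21053214 per library. Within groups, libraries differed beyond counting noise: the chi-square per degree of freedom over genes was 13.1 to 18.8 between ACM replicates, 19.9 and 21.5 between UCM replicate 1 and the other UCM libraries, and 2.32 between UCM replicates 2 and 3. The labels call the cells epithelial. Mesenchymal markers (VIM, ZEB1, FN1, CDH2 and SPARC) summed to 5682 to 6439 CPM (counts scaled to the size of the library, the unit of all levels below unless TPM is named), whereas 8 epithelial markers summed to 3.55 to 5.75 CPM, with 2 counts of EPCAM in all. Adipocyte markers summed to at most 0.143 CPM, with ADIPOQ, LEP and CIDEC at 0.

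In ACM, mRNA of CXCL1, CXCL2, CXCL3 and CCL2 rose, by 3.93-fold, 4.35-fold, 6.84-fold and 1.74-fold. CXCL5 and CXCL8 had estimates of 2.48-fold and 7.56-fold with every ACM culture above every UCM culture, but they did not pass the adjusted test. CXCL12 and CXCL16 overlapped between groups, CCL20 had 44 counts in ACM against 2 in UCM, and CXCL6 was barely detected. By edgeR's quasi-likelihood test with Benjamini-Hochberg adjustment over all genes tested, 4 of the 8 tested chemokine genes were higher at an adjusted p at or below 0.05, and 0 were lower. Over all genes tested, 484 were higher (3.35%) and 320 lower (2.21%). At an unadjusted p at or below 0.05, 6 chemokine genes were higher and 0 lower, against 11.9% and 11.5% of all genes tested. DESeq2 called 6 higher and 0 lower. In 6 of the 8 genes all 3 ACM values lay above all 3 UCM values, as they did in 13.9% of all genes tested, and in 0 genes they lay below, against 15.1%. The median log2 fold change of the 8 was 1.64, beside -0.01 over all genes tested. The 10 genes were named with earlier results of these data known, so these counts and the median describe the set and are no test of it. In bulk RNA a larger share of expressing cells cannot be told apart from more mRNA per cell.

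**Figure D1:**
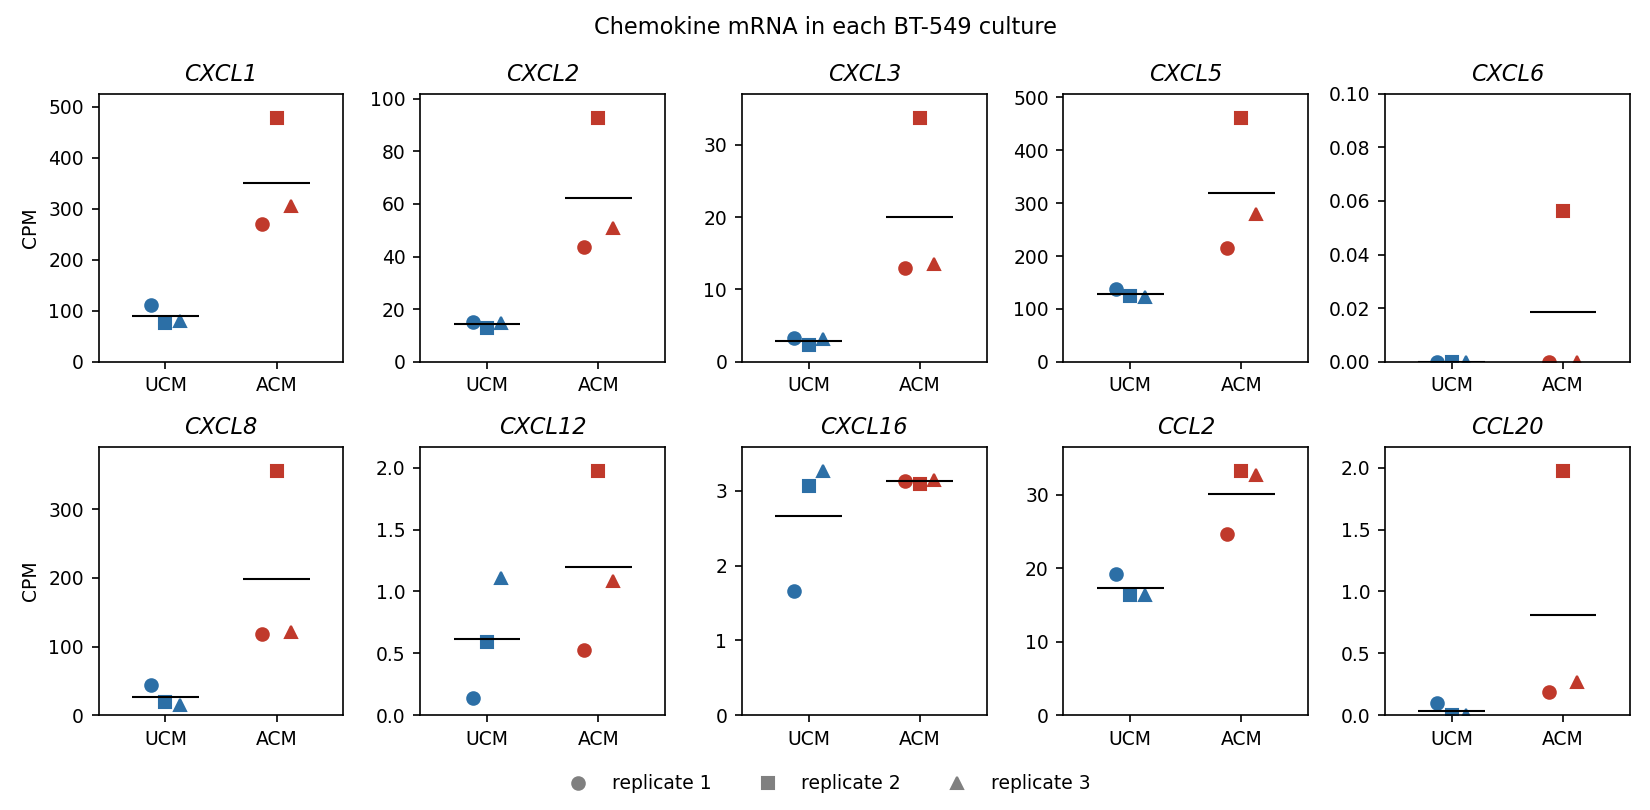
CPM of each of the 10 chemokine genes (vertical axis, linear, own scale for each gene) in the 3 UCM and 3 ACM cultures, with 1 symbol per replicate number and a line at each group mean. For CXCL1, CXCL2, CXCL3, CXCL5, CXCL8 and CCL2 all ACM points lie above all UCM points, and ACM replicate 2 is the highest point of each of these panels.

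CXCL1, first described for its growth-promoting activity on melanoma cells, had the highest level of the set per transcript length. Its level was 270, 478 and 306 CPM in ACM replicates 1, 2 and 3 and 111, 76.2 and 81.0 CPM in UCM, from 5684, 8485 and 5625 against 2337, 1417 and 1389 counts. The groups did not overlap, and the lowest ACM culture was above the highest UCM culture by more than the spread within UCM. The means were 351 ± 111 CPM for ACM against 89.3 ± 18.7 CPM for UCM (SD, n = 3), which gave a log2 fold change of 1.97 ± 0.26 (SE, adjusted p = 0.0155, edgeR).

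CXCL2 and CXCL3, close relatives of CXCL1 that macrophages also make, rose as well. CXCL2 stood at 43.6, 92.7 and 50.9 CPM in ACM and 15.2, 13.0 and 14.7 CPM in UCM, and the UCM cultures were nearly alike. The means were 62.4 ± 26.5 and 14.3 ± 1.15 CPM (SD, n = 3), with a log2 fold change of 2.12 ± 0.31 (SE, adjusted p = 0.0192, edgeR). For CXCL3 the values were 12.9, 33.7 and 13.5 CPM in ACM and 3.27, 2.31 and 3.15 CPM in UCM. ACM replicate 2 was 2.55 times the mean of the other ACM cultures for CXCL3, whereas the other ACM cultures were close to each other. The means were 20.0 ± 11.8 and 2.91 ± 0.521 CPM, and the log2 fold change was 2.77 ± 0.46 (SE, adjusted p = 0.0259, edgeR). CXCL2 and CXCL3 share sequence: 79 of 1479 stretches of 100 bases in CXCL2 transcripts (5.34%) also occur in CXCL3, and CXCL1 shares 0 of its 1263 stretches with the others. The 3 genes summed before the test had a log2 fold change of 2.02 ± 0.27 (SE, adjusted p = 0.0175, edgeR). The effective length estimated for CXCL2 did not overlap between groups either, with 607, 638 and 537 bases in UCM against 657, 737 and 725 bases in ACM, and with these lengths as offsets its log2 fold change was 1.86.

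The calls of CXCL1, CXCL2 and CXCL3 depended on the UCM libraries, on the filter and on whether the replicate number entered the model. With the replicate number as a block their adjusted p was 0.115, 0.0542 and 0.0532 (edgeR), and of the 8 tested genes only CCL2 was called. With a filter of at least 1 count in total their adjusted p was 0.0523, 0.0655 and 0.0745 (edgeR), so none of the 3 was called. The adjusted p of CXCL1 was 0.0360, 0.0870 and 0.0849 without UCM replicate 1, 2 or 3, with log2 fold changes from 1.87 to 2.17. The adjusted p of CXCL2 ranged from 0.0792 to 0.113 over these 3 fits and that of CXCL3 from 0.0853 to 0.138 (edgeR). Leaving out any 1 ACM library kept all 3 genes past the threshold. Without ACM replicate 2 the log2 fold changes were 1.69 for CXCL1, 1.72 for CXCL2 and 2.18 for CXCL3.

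CXCL5, which epithelial cells make after IL-1 or TNF, had an estimate in the same direction that did not pass. Its values were 214, 461 and 280 CPM in ACM and 138, 125 and 122 CPM in UCM. The groups did not overlap, but the ACM cultures were spread widely and the UCM cultures were not. The means were 318 ± 128 and 128 ± 8.64 CPM (SD, n = 3). The log2 fold change was 1.31 ± 0.28 (SE, unadjusted p = 0.0040, adjusted p = 0.0604, edgeR). Without ACM replicate 1 or ACM replicate 2 the gene passed, with log2 fold changes of 1.53 (adjusted p = 0.0184) and 0.94 (adjusted p = 0.0084). It also passed under DESeq2 (1.32, adjusted p = 0.0028). Its counts were fractional in all 6 libraries, and ENSG00000287037, a long noncoding RNA gene on the opposite strand, overlaps it. Whether strand was used in counting is not given in the sources used here, so reads of the stretch that both cover may not have been told apart. The noncoding gene was assigned 20 to 51 counts per library and CXCL5 2089 to 8184.

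CXCL8 (interleukin-8), the classical neutrophil attractant, had the largest estimate of the 8 tested genes and the largest standard error. Its values were 119, 355 and 121 CPM in ACM and 43.5, 19.6 and 14.9 CPM in UCM. The lowest ACM culture was above the highest UCM culture, yet 1 library in each group stood apart: ACM replicate 2 was 2.97 times the mean of the other ACM cultures and UCM replicate 1 was 2.53 times the mean of the other UCM cultures. The means were 198 ± 136 and 26.0 ± 15.4 CPM (SD, n = 3). The log2 fold change was 2.92 ± 0.72 (SE, unadjusted p = 0.0121, adjusted p = 0.104, edgeR). The log2 fold change was 2.19 without ACM replicate 2 (adjusted p = 0.0963) and 3.53 without UCM replicate 1 (adjusted p = 0.117). The adjusted p ranged from 0.0838 to 0.332 over the 6 fits that each left out 1 library. DESeq2 gave 2.94 with an adjusted p of 7.8e-04.

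CXCL6, the sixth ELR+ gene, had 1 count in ACM replicate 2 and 0 in the other 5 libraries.

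CCL2 (MCP-1), the main monocyte attractant of the set, rose by the smallest fold of the 4 genes that passed and with the smallest error. It stood at 24.6, 33.2 and 32.6 CPM in ACM and 19.1, 16.3 and 16.3 CPM in UCM, so the groups did not overlap and ACM replicate 1 was nearest to UCM. The means were 30.1 ± 4.79 and 17.3 ± 1.62 CPM (SD, n = 3), with a log2 fold change of 0.80 ± 0.13 (SE, adjusted p = 0.0089, edgeR). CCL2 passed the threshold in all 14 alternative fits, the 6 without 1 library included, with adjusted p up to 0.0489.

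CXCL12 (SDF-1), which keeps stem cells and lymphocytes in the bone marrow, was near the lower limit of what was tested, with 11, 35 and 20 counts in ACM against 3, 11 and 19 counts in UCM. By CPM, UCM replicate 3 (1.11) was above ACM replicates 1 (0.523) and 3 (1.09), so the groups overlapped. The log2 fold change was 0.98 ± 0.68 (SE, adjusted p = 0.438, edgeR). CXCL16, whose membrane form also acts as a scavenger receptor, was at 3.14, 3.10 and 3.15 CPM in ACM and 1.66, 3.07 and 3.27 CPM in UCM. ACM cultures were alike, 1 UCM culture was low, and the other 2 were at the ACM level. The log2 fold change was 0.24 ± 0.28 (SE, adjusted p = 0.668, edgeR), and -0.01 without UCM replicate 1.

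CCL20 (MIP-3α), the ligand of CCR6, had 4, 35 and 5 counts in ACM against 2, 0 and 0 counts in UCM. Per total count the summed ratio was 21.7 (95% exact interval 5.67 to 185, which covers counting error only). Of the 44 ACM counts, 35 came from ACM replicate 2, so the ratio rests mainly on 1 culture.

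**Figure D2:**
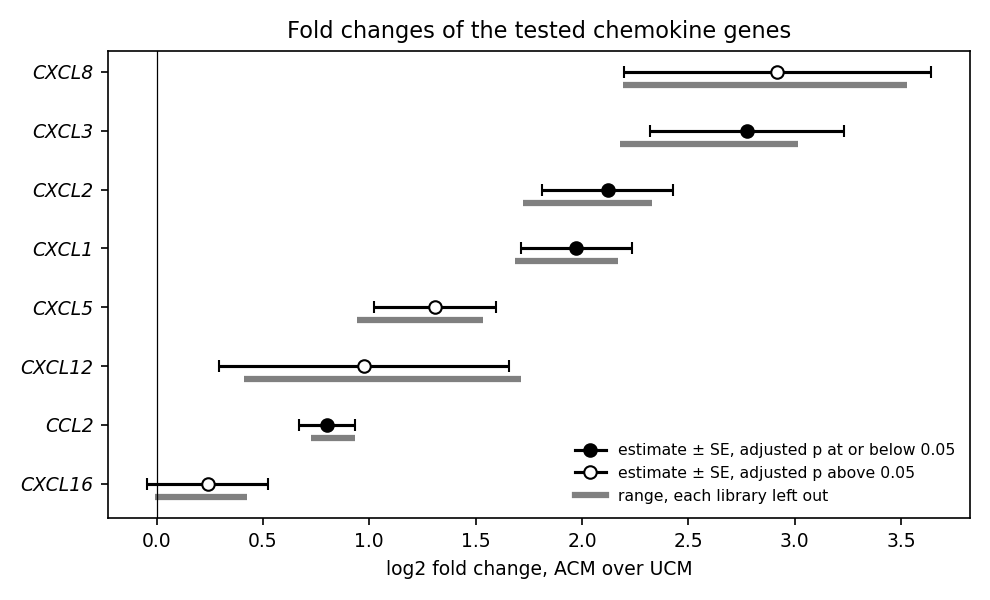
Log2 fold change of ACM over UCM (horizontal axis) for the 8 tested chemokine genes, as estimate ± SE from edgeR, with filled points at an adjusted p at or below 0.05 and open points above it. Grey bars give the range when each library was left out, which ran from 2.19 to 3.53 for CXCL8 and from 0.72 to 0.93 for CCL2.

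ACM replicate 2 was the highest ACM culture for each of the 10 genes except CXCL16. This held for CXCL1 (1.66 times the mean of the other ACM cultures), CXCL2 (1.96), CXCL3 (2.55), CXCL5 (1.87), CXCL8 (2.97), CXCL12 (2.45), CCL2 (1.16) and CCL20 (8.54). CXCL6 had its single count there, and CXCL16 was at 0.985 of the others. Among all genes tested this library was the highest ACM culture for 34.1%. On the control side UCM replicate 1 was the highest UCM culture for CXCL8, CXCL1 (1.41 times the mean of the others), CXCL2, CXCL3, CXCL5 (1.12), CCL2 (1.17) and CCL20, and the lowest for CXCL16 (0.524) and CXCL12 (0.167). It was the highest UCM culture for 38% of all genes tested. The total of ACM replicate 2 was 18011677 counts, the lowest of the ACM libraries. What sets this library apart was not tested.

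Levels of different genes were compared in TPM, which unlike CPM is scaled by transcript length. In UCM the order was CXCL1 at 148 ± 33.6 TPM, CXCL5 at 85.3 ± 6.78, CCL2 at 49.6 ± 6.12, CXCL2 at 34.8 ± 5.39, CXCL8 at 28.1 ± 17.3, CXCL3 at 5.39 ± 0.779, CXCL16 at 2.40 ± 0.406 and CXCL12 at 0.393 ± 0.286 (SD, n = 3). CXCL2 and CXCL8 overlapped in range, and so did CXCL12, CCL20 and CXCL6 at the bottom, whereas the other neighbours did not. In ACM the order was CXCL1 at 571 ± 163 TPM, CXCL8 at 210 ± 139, CXCL5 at 208 ± 79.7, CXCL2 at 123 ± 44.3, CCL2 at 88.4 ± 15.5, CXCL3 at 36.4 ± 20.6, CXCL16 at 2.64 ± 0.380, CCL20 at 2.03 ± 2.50 and CXCL12 at 1.03 ± 0.332. The run from CXCL8 to CCL2 overlapped from neighbour to neighbour, and so did the run from CXCL16 to CXCL12, so those places are not distinct. CXCL8 moved from the fifth place to the second by mean TPM. Among protein-coding genes ordered by TPM, CXCL1 was at rank 295, 178 and 270 in ACM and 830, 1377 and 1275 in UCM, and CXCL8 at rank 1286, 361 and 1279 in ACM against 3496, 6090 and 7012 in UCM.

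The makeup of the summed chemokine mRNA differed as well. The 10 genes summed to 911, 1762 and 1056 TPM in ACM and 429, 309 and 325 TPM in UCM. The ELR+ genes made up 91.8, 94.1 and 90.3% of that sum in ACM and 86.2, 84.1 and 84.8% in UCM. The share of CXCL8 was 14.0, 21.1 and 12.6% in ACM and 11.2, 6.72 and 4.82% in UCM. CXCL5 had 15.4, 16.8 and 17.7% in ACM and 21.7, 26.5 and 24.9% in UCM, and CCL2 had 7.75, 5.43 and 9.37% against 13.2, 15.0 and 14.2%. CXCL3 had 2.70, 3.41 and 2.32% in ACM and 1.39, 1.46 and 1.76% in UCM. Shares of CXCL8 and CXCL3 were higher in every ACM culture than in every UCM culture. Those of CXCL5, CCL2 and CXCL16 were lower in every ACM culture. CXCL1 overlapped, at 42.9 to 49.4% against 40.1 to 43.5%. These shares depend on one another and were not tested.

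**Figure D3:**
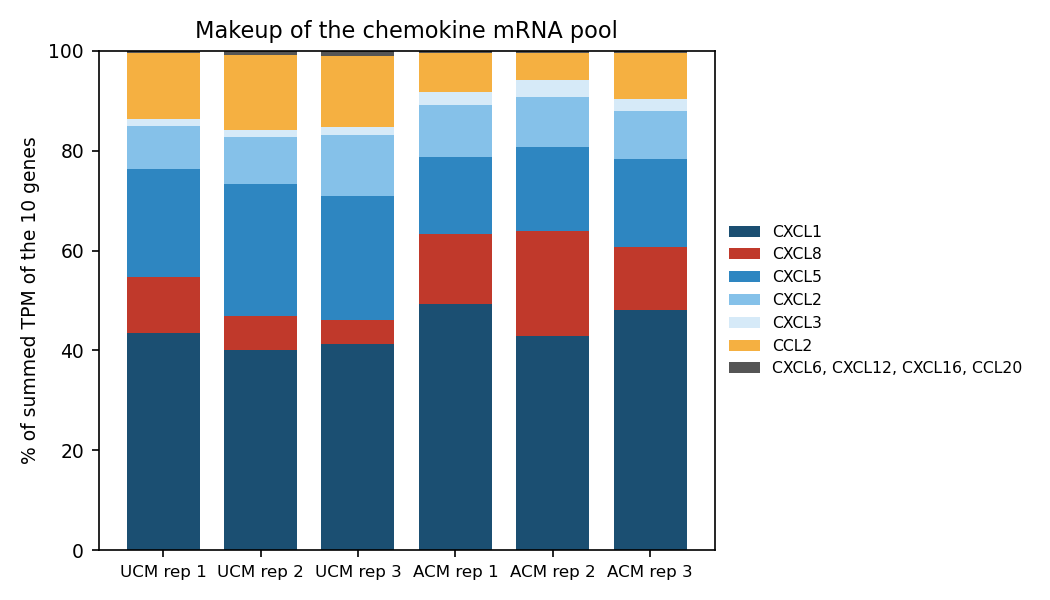
Share of each chemokine gene in the summed TPM of the 10 genes (vertical axis, %, from 0 to 100) in each of the 6 cultures, with CXCL6, CXCL12, CXCL16 and CCL20 drawn together. The CXCL8 share is 12.6 to 21.1% in ACM and 4.82 to 11.2% in UCM.

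Few other genes of the chromosome 4 cluster had reads. From CXCL8 to CXCL2 the annotation holds 20 genes over 359 kb, of which 9 had a count in any library and 6 were tested: the 5 chemokine genes above and ENSG00000287037. That noncoding RNA had 48, 41 and 51 counts in ACM against 24, 32 and 20 counts in UCM, with no overlap and a log2 fold change of 0.87 ± 0.30 (SE, adjusted p = 0.113, edgeR). PF4, which encodes a platelet chemokine and lies between CXCL1 and CXCL5, had 4 counts over the ACM cultures against 2 over the UCM cultures, and its relatives PF4V1 and PPBP had 0. UMLILO, a noncoding RNA gene upstream of CXCL8 that was picked out after its values were seen, also had 0. MTHFD2L, a folate enzyme gene beyond CXCL2, had a log2 fold change of -0.24 ± 0.13 (adjusted p = 0.300). Of 16 listed neighbours of the cluster 7 were tested, with a median log2 fold change of -0.08. By edgeR, 0 were higher and 0 lower at the adjusted p and also at the unadjusted p. DESeq2 gave 0 and 0 as well. Over all genes tested, 3.35% were higher and 2.21% lower (11.9% and 11.5% unadjusted). Without UCM replicate 1, 1 neighbour was higher at the adjusted p (edgeR). The tested neighbours of highest mean CPM were G3BP2 (log2 fold change -0.04, adjusted p = 0.804), ANKRD17 (0.15, adjusted p = 0.555) and USO1 (0.02, adjusted p = 0.909, edgeR).

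**Figure D4:**
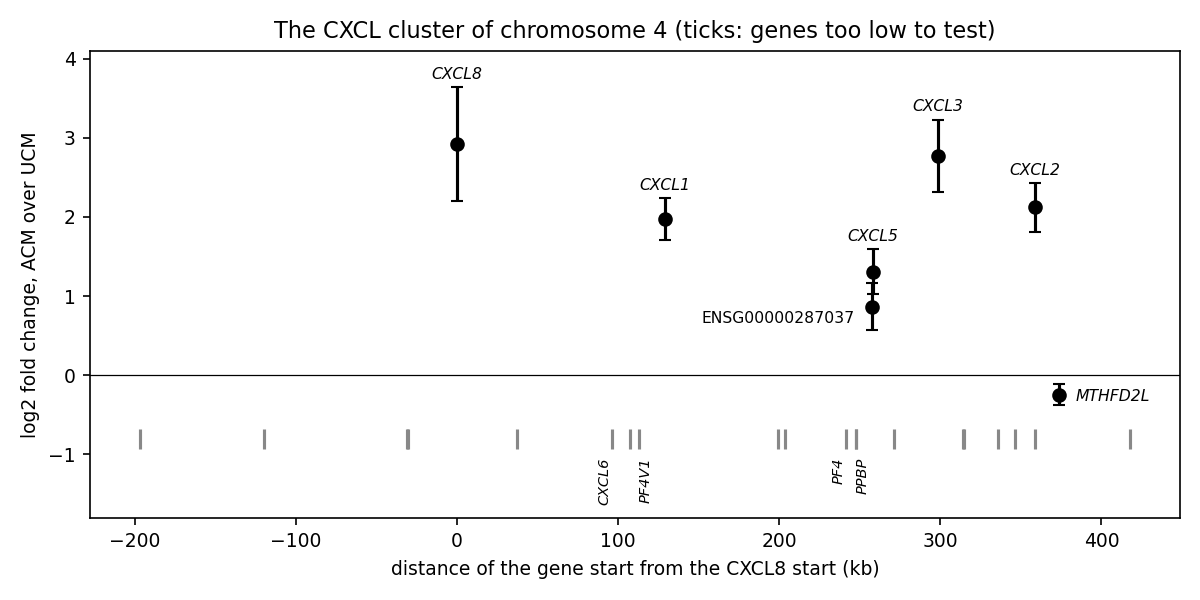
Log2 fold change of ACM over UCM (vertical axis, estimate ± SE from edgeR) against the distance of each gene start from that of CXCL8 in kb (horizontal axis). Ticks mark genes with too few reads to test, CXCL6, PF4V1, PF4 and PPBP among them, and MTHFD2L at the right is at -0.24.

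Of 36 other chemokine ligands, 27 had 0 counts in every library and only CCL5, which draws T cells and monocytes, was tested (0.38, adjusted p = 0.712). These 36 genes summed to 0.758 to 3.44 CPM per library, whereas the 6 ELR+ genes summed to 235.5 to 1421 CPM. CCL7, a monocyte attractant next to CCL2, had 5, 11 and 2 counts in ACM against 0, 2 and 0 counts in UCM. The receptors of the ELR+ chemokines, CXCR1 and CXCR2, had 0 of 114145960 counts over the 6 libraries, which allows a level of up to 0.0263 CPM. CCR2, CCR6 and CXCR6, the receptors of CCL2, CCL20 and CXCL16, had 1, 1 and 7 counts. Of 23 chemokine receptors 3 were tested, and 0 were higher and 0 lower at the adjusted p (0 and 1 unadjusted). Among all genes tested the shares were 3.35% and 2.21% (11.9% and 11.5% unadjusted). The scavenging CXCL12 receptor ACKR3 was at 25.9 ± 2.64 CPM for ACM against 36.4 ± 7.48 CPM for UCM (SD, n = 3), with a log2 fold change of -0.49 ± 0.15 (adjusted p = 0.0978). CXCR4, the signaling receptor of CXCL12, had a log2 fold change of 0.97 (adjusted p = 0.301) and CCR10 one of 0.23 (adjusted p = 0.650, edgeR).

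Of 14 receptors and adaptors for TNF, IL-1, IL-17 and Toll-like receptor signals, 11 were tested, 3 were higher and 0 lower (5 and 1 unadjusted), and the median log2 fold change was 0.14. Over all genes tested, 3.35% were higher and 2.21% lower (11.9% and 11.5% unadjusted). The number higher was 2 without ACM replicate 2, ACM replicate 3 or UCM replicate 2, and 1 without UCM replicate 3, under both limma-trend fits and with effective lengths as offsets. TNFRSF1B (TNF receptor 2) rose from 1.37 ± 0.411 to 7.93 ± 4.31 CPM in ACM, with a log2 fold change of 2.53 ± 0.41 (adjusted p = 0.0143). IL17RC, a subunit of the IL-17 receptor, rose by 0.69 ± 0.12 (adjusted p = 0.0098) and TNFRSF1A (TNF receptor 1) by 0.43 ± 0.09 on the log2 scale (adjusted p = 0.0304). Of 17 NF-κB subunits and inhibitors 2 were higher and 0 lower (6 and 0 unadjusted), with a median of 0.13. The number higher was 0 without ACM replicate 1, UCM replicate 2 or UCM replicate 3, 1 under both limma-trend fits and with effective lengths, and 5 without UCM replicate 1 and under DESeq2. NFKBIZ, which encodes the nuclear regulator IκBζ, had a log2 fold change of 1.51 ± 0.27 (adjusted p = 0.0335) and TNIP1, a partner of the NF-κB inhibitor A20, one of 0.60 ± 0.14 (adjusted p = 0.0496). These lists were drawn up with earlier results of these data known.

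Of 8 factors that bind or cut chemokine mRNA 2 were higher and 0 lower (2 and 1 unadjusted), with a median log2 fold change of -0.03, and 5 of the 8 estimates were negative. The shares over all genes tested were 3.35% higher and 2.21% lower (11.9% and 11.5% unadjusted). The number higher was 0 without ACM replicate 2 or UCM replicate 3, and 1 without ACM replicate 1, ACM replicate 3 or UCM replicate 2, under both limma-trend fits and with effective lengths. ZC3H12A (Regnase-1), an RNase that degrades inflammatory mRNAs, had a log2 fold change of 0.93 ± 0.18 (adjusted p = 0.0194), and ZFP36L1, which binds AU-rich elements, one of 0.31 ± 0.07 (adjusted p = 0.0352, edgeR). Both are known to lower such mRNAs. HNRNPD, another AU-rich element binding factor, named after its values were seen, had a log2 fold change of -0.19 ± 0.06 (unadjusted p = 0.0111, edgeR) and did not pass the adjusted test. Of 13 genes for processing and display of chemokine proteins 0 were higher and 0 lower (2 and 1 unadjusted), with a median of -0.07. Those of highest mean CPM were the heparan sulfate genes NDST1 (-0.17, adjusted p = 0.249), SDC4 (-0.15, adjusted p = 0.272) and EXT1 (-0.14, adjusted p = 0.301). Over all lists around the 10 chemokine genes, 7 genes were higher and 0 lower by edgeR, and 1, a chemokine receptor, was lower by DESeq2. These 7 were 3 of the 11 tested receptors and adaptors, 2 of the 17 NF-κB genes and 2 of the 8 decay factors. In the other lists 0 were higher. The number higher over all lists was 12 without UCM replicate 1, 5 without ACM replicate 3, 4 without ACM replicate 1 or 2, 3 without UCM replicate 2 and 1 without UCM replicate 3.

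**Figure D5:**
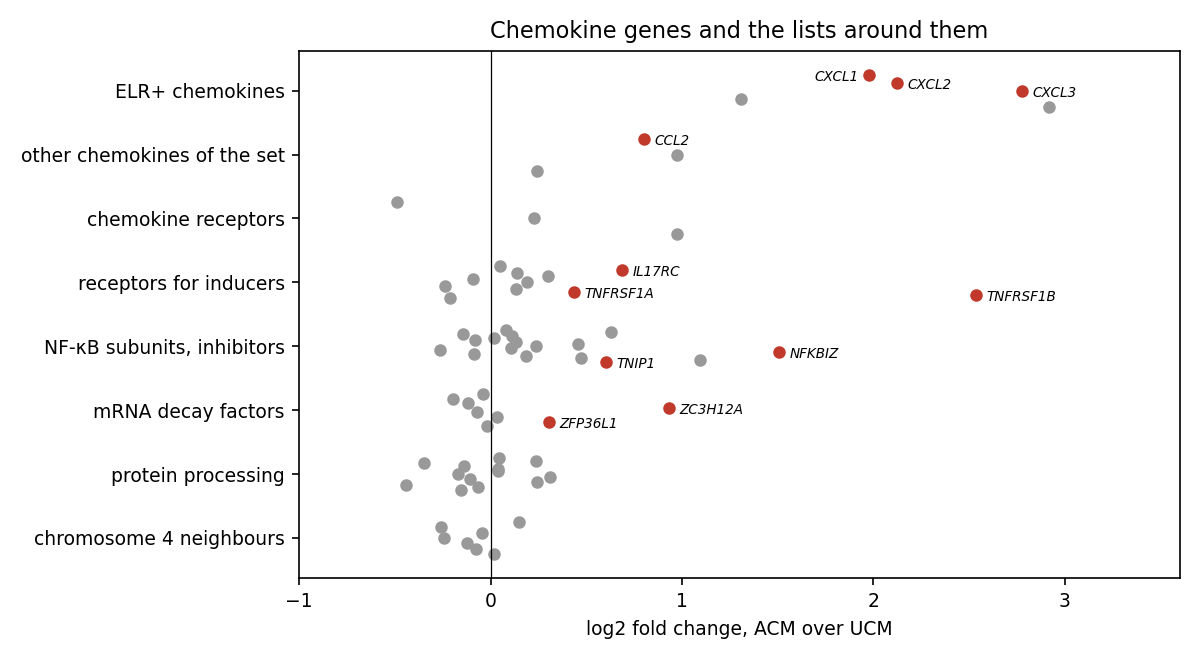
Log2 fold change of ACM over UCM (horizontal axis) of each tested gene, 1 point per gene, for the chemokine genes and the lists around them, with vertical offsets only to separate points. Red named points had an adjusted p at or below 0.05 (edgeR) and grey points did not.

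Markers of leukocytes, which could make chemokines themselves, were measured in the same libraries. The 10 markers summed to 13.0, 30.1 and 16.6 CPM in ACM and 7.34, 6.13 and 6.59 CPM in UCM, 7 of them having any count. Most of it was CD68, a lysosomal gene of macrophages that other cells also use, with a log2 fold change of 1.76 ± 0.34 (adjusted p = 0.0335, edgeR). LYZ, CSF3R and FCGR3A were at 0 in every library, PTPRC had 3 to 6 counts and CD14 3 to 13. CD68 was at 12.1, 29.1 and 16.0 CPM in ACM and 6.59, 4.79 and 5.36 CPM in UCM. It was highest in ACM replicate 2, as the chemokine genes other than CXCL16 were, and its part in their values was not tested. Endothelial markers summed to 0.0538 to 0.435 CPM.

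Genes with the profile most like that of the ELR+ chemokines were sought among 13343 tested genes of at least 1 CPM, by the root mean square difference of log2 CPM, each gene centred on its mean over the 6 libraries. Closest to the mean of the 5 tested ELR+ genes were DUSP6, a phosphatase of ERK, at a difference of 0.148, the metallothionein MT2A at 0.168, the myosin gene MYH15 at 0.199, KYNU, an enzyme of tryptophan breakdown, at 0.201 and GFPT2, an enzyme of hexosamine synthesis, at 0.202. For single genes the closest was MT2A for CXCL1 (0.105), GRAMD1B for CXCL2 (0.102), the cytokine gene IL6 for CXCL3 (0.141), DIO3 for CXCL5 (0.0849) and the stress cytokine gene GDF15 for CXCL8 (0.229). IL6 stood at 37.9, 85.9 and 33.0 CPM in ACM and 9.81, 6.18 and 7.11 CPM in UCM, with the same high ACM replicate 2 as CXCL3. CCL2 was closest to the zinc exporter gene SLC30A1 (0.0733), CXCL16 to MPV17L (0.0712) and CXCL12 to FMO4 (0.437). Likeness over 6 libraries is a description and carries no test.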

How the data were processed

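RNA of 3 ACM and 3 UCM cultures of BT-549 cells was measured, grouped by the treatment label. According to the submitters' processing notes and the methods, Trim Galore, STAR and RSEM were the tools with which the authors trimmed, aligned (to GRCh38) and quantified the paired reads. Versions, annotation and strand setting are not given in the sources used here. The authors deposited for each gene an expected count, in which reads that fit several genes are divided and which is not scaled to library size. The TPM values that the authors deposited are scaled to effective length and to the same sum in every library, and effective lengths in bases were deposited too. A further table by the authors holds their own ACM against UCM comparison, as log2 fold change, score and p-value, and was not used. Identifiers were matched to GENCODE 44, 61547 with and 994 without the version.

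Rounded expected counts entered edgeR 4.0.16 (R 4.3.3), with TMM normalization, filterByExpr and a robust quasi-likelihood test of treatment alone. Benjamini-Hochberg adjustment ran over 14451 genes, at a threshold of 0.05. The coefficient of biological variation was 0.115. CPM used the total of the tested genes scaled by the TMM factor. Low counts limit precision most for CXCL12, CXCL6 and CCL20, and intervals cover counting error only. The alternatives were DESeq2 1.42.0, RLE size factors, other count filters (at least 1 in total, at least 10 in every library), limma-trend (limma 3.58.1) on log2(TPM + 1) or log2(TPM + 0.1), a replicate block, the omission of each library, and, added after seeing the data, effective lengths as offsets.

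The chemokine genes and the lists around them were chosen with earlier results of these data known. Genes named are the 10 chemokine genes, of each other list up to 5 genes at the adjusted p (or, where fewer than 2 passed, also the 3 tested genes of highest mean CPM), the 5 closest profiles, the closest profile of each tested gene, and cell type markers. CCL7, the other receptors of the 10 chemokines, HNRNPD and the genes named within the cluster were added after their values were seen. Promoters came from RefSeq (GRCh38.p14).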

Additional observations from a re-analysis of the deposited data

How the results depend on the processing

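Direction was kept for all 8 tested chemokine genes in all alternatives that gave a value, except that CXCL16 was at -0.0070 without UCM replicate 1; CXCL12 had no value with at least 10 counts required in every library. Log2 fold changes lost the threshold for CXCL1, CXCL2 and CXCL3 with a filter of at least 1 count (1.98, 2.12 and 2.78; adjusted p = 0.0523, 0.0655 and 0.0745), where 25486 genes were adjusted over. CXCL5 passed under DESeq2 (1.32), the filter of 10 counts per library (1.32), limma-trend with 1 added (1.21) and effective lengths (1.32), and CXCL8 under DESeq2 (2.94), limma-trend with 1 added (2.83) and effective lengths (2.94); the cause was not tested. The 4 chemokine genes higher became 6 under those last 3, 5 with at least 10 counts, and 2 (CCL2 and CCL20) with at least 1 count; their median was 1.99 with at least 10 counts, since CXCL12 was not tested. With each library left out the number was 1 to 5, the median 1.32 to 1.84, and log2 fold changes were 1.69 to 2.17 for CXCL1, 1.72 to 2.33 for CXCL2, 2.18 to 3.02 for CXCL3, 0.94 to 1.53 for CXCL5 and -0.01 to 0.42 for CXCL16.

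Over all genes, 484 higher and 320 lower became 762 higher under DESeq2, 1045 and 679 with a filter of at least 1 count, 230 and 132 or 234 and 138 by limma-trend with 1 or 0.1 added, and 272 and 134 with effective lengths. Without each library in turn they were 125 to 738 higher and 62 to 572 lower. In the lists around the chemokine genes, 7 higher became 3, 3 and 3 under both limma-trend fits and effective lengths (1 to 12 without each library), and 0 lower became 1 under DESeq2 and 2 with at least 1 count (0 to 2 without each library).

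With the replicate number as a block, 909 genes were higher and 703 lower, 1 chemokine gene (CCL2) was higher and 1 listed gene lower, and log2 fold changes were 1.95 for CXCL1 (adjusted p = 0.115), 2.05 for CXCL2 (0.0542) and 2.65 for CXCL3 (0.0532). Same-numbered ACM and UCM libraries deviated from their group means with correlations of 0.318, 0.0347 and 0.177. Libraries of unlike number had correlations from -0.314 to 0.196, the highest for ACM replicate 3 with UCM replicate 2. These values do not settle whether the numbers pair the cultures, and the main fit did not pair them. Depth limits CXCL6, CCL20 and CXCL12.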
